A study of Homo sapiens and Homo sapiens
Mus with 12 samples.

Results

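The data covered 9 genes of the cell-surface protease network in UM-UC-3, a human bladder cancer cell line: the protease-activated receptors F2R, F2RL1 and F2RL2, tissue factor F3 and its inhibitors TFPI and TFPI2, and the plasminogen activators PLAU and PLAT with the receptor PLAUR. They were chosen by function and matched by gene symbol, and all 9 were found among 21466 genes of the cultured-cell table and 26813 human genes of the tumor table. F2RL1 was in addition chosen for being lower with CDH11 knockdown in culture and higher in tumors, so its values against the control are given as a description without a test. Enough reads for a test were present for 5 members in culture (F2R, F2RL1, TFPI, PLAU and PLAUR) and for 6 in tumors (the same genes and TFPI2).

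Cells carried a lentiviral GIPZ vector expressing GFP together with a nonsilencing hairpin (shCtrl) or with either of 2 hairpins against CDH11 (sh#1 and sh#2), and GFP-positive cells were sorted, so every group, the control included, was a virus-infected sorted population. CDH11 encodes a mesenchymal cadherin, and the comparison asked how its knockdown (CDH11 KD, both hairpins together) changed the bladder cancer cells. Cultured cells gave 3 libraries per group after 24 h of preculture, with 2273182 to 2777019 counts each. Xenograft tumors gave 5 per group, taken 4 weeks after cells in Matrigel were injected under the skin of nude mice aged 5 weeks, with 414849 to 1248977 human counts each and 10.4 to 30.0% of all counts assigned to mouse genes. Nude mice lack a thymus and keep their own stroma, vessels and innate immune cells, so a tumor held human cells and mouse host tissue. The tumors were sequenced in 3 pooled mixes, each holding 1 group, so mix and group cannot be told apart. Of 9 markers listed for the line, VIM was high in culture (2140 to 4331 CPM, read counts scaled to a common library size) and KRT8, KRT18 and CDH2 were present (means of 123, 153 and 33.6 CPM). The other epithelial and urothelial markers were at or near 0, EPCAM having no count in any of the 9 cultured libraries, KRT5 1 count and UPK2 2 counts in all of them together, and GATA3 and KRT7 means of 1.58 and 3.68 CPM. Nothing in the labels says that replicate libraries came from separate cultures, and p-values then measure only the spread between these libraries. In tumors, fewer cells of a type and less RNA per cell cannot be told apart.

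Protease-activated receptors are G protein-coupled receptors that are switched on when a protease cuts their extracellular end and exposes a tethered ligand. F2R (PAR1) is the main thrombin receptor, F2RL1 (PAR2) responds to trypsin-like proteases and to the tissue factor and factor VIIa complex, and F2RL2 (PAR3) is a thrombin receptor that often acts as a cofactor. Tissue factor starts clotting on the cell surface and TFPI blocks it, while urokinase (PLAU) bound to its receptor (PLAUR) turns plasminogen into plasmin, which degrades fibrin and matrix. PLAT is the tissue-type plasminogen activator.

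Promoter windows of 250 bases before to 50 bases after the RefSeq start site (GRCh38.p14) were found for 7 of the 9 members, F2R and PLAT having none. They are shown for F2RL1, PLAUR and PLAU. In culture F2RL1 was lower and PLAUR higher with both hairpins, and PLAU was lower with sh#1 and higher with sh#2. Capitals mark matches on either strand to the AP-1 site TGANTCA and to the hypoxia-element core ACGTG or GCGTG. The F2RL1 window is at chr5:76818780-76819079 on the plus strand, the PLAUR window at chr19:43670120-43670419 on the minus strand, and the PLAU window, the downstream one of 2, at chr10:73910882-73911181 on the plus strand.
F2RL1: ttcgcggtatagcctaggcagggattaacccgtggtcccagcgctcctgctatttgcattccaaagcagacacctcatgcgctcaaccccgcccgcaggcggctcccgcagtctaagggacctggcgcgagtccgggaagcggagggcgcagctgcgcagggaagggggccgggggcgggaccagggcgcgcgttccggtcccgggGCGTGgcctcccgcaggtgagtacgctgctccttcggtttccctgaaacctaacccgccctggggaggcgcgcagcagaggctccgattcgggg
PLAUR: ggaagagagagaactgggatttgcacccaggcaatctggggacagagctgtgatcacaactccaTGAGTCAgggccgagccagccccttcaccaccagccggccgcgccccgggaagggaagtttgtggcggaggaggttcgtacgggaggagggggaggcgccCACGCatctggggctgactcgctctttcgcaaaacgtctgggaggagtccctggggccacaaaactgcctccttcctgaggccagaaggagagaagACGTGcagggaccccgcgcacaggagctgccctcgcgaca
PLAU: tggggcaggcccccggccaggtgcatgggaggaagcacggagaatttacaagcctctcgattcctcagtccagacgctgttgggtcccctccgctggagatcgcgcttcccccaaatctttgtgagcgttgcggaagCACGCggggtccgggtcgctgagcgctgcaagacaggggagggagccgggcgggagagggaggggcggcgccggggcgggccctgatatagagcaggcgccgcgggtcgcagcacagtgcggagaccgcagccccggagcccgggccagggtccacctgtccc
The PLAUR window held 1 AP-1 match, beginning 186 bases before the start site, and 2 hypoxia-core matches. The F2RL1 and PLAU windows shown held no AP-1 match and 1 hypoxia-core match each. Among all 35116 windows of this length, 7.71% held an AP-1 match and 48.4% a hypoxia-core match. The F3 window held 2 AP-1 matches and the windows of TFPI2 and F2RL2 1 each, and the TFPI window had neither motif. These are letter matches in a short window and no factor's binding was measured.

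CDH11, the targeted gene, was close to the detection limit in culture, its reads numbering 2, 4 and 4 in shCtrl, 0, 0 and 1 with sh#1, and 1, 2 and 0 with sh#2, which was too few for a test. In tumors it had a mean of 16.6 CPM in shCtrl, 4.99 with sh#1 and 10.1 with sh#2. It fell by 1.67 on the log2 scale with sh#1 (SE 0.399, q = 0.026), and its change with sh#2 was -0.73 (SE 0.353, q = 0.347). For both hairpins as 1 group it was -1.13 (SE 0.332, q = 0.112), which did not pass. Mouse Cdh11 in the same tumors had means of 161, 81.5 and 143 CPM in shCtrl, sh#1 and sh#2. Its log2 fold change with sh#1 was -0.98 (q = 0.582). The sh#1 tumors had 1, 3, 9, 2 and 7 human counts and 1, 5, 28, 2 and 10 mouse counts. The shCtrl tumors had 21, 12, 15, 32 and 5 human counts and 30, 23, 12, 27 and 9 mouse counts. The sh#2 tumors had 7, 14, 12, 6 and 2 human counts and 17, 30, 28, 10 and 7 mouse counts. The part of mouse reads in the human CDH11 counts was not tested. CPM were computed after TMM normalization of the library totals, q is the Benjamini-Hochberg adjusted p of edgeR's quasi-likelihood test over all genes of the table, and the thresholds were q under 0.05 in culture and under 0.1 in tumors.

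F2RL1 lies at chr5:76818933-76835315 (hg38, plus strand). Its relatives are near it on the same chromosome, F2R at chr5:76716126-76735770 on the plus strand and F2RL2 at chr5:76615482-76623413 on the minus strand. In culture the shCtrl libraries held 31, 45 and 63 reads of F2RL1, against 11, 11 and 14 with sh#1, and 11, 12 and 15 with sh#2. Every knockdown library was below every control library. The mean was 18.2 ± 5.91 CPM (SD, n = 3) in shCtrl, 4.74 ± 0.214 with sh#1 and 6.06 ± 1.12 with sh#2, a log2 fold change of -1.93 (SE 0.276) for sh#1 and -1.59 (SE 0.275) for sh#2. The hairpins were not chosen for their difference, which was -0.34 on the log2 scale for sh#1 against sh#2 (SE 0.352, 95% interval -1.03 to 0.35, q = 0.521) and did not pass the test.

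In tumors F2RL1 had 8.83, 11.9, 9.12, 14.2 and 15.3 CPM in shCtrl, 22.2, 39.6, 18.0, 19.6 and 21.2 with sh#1, and 18.5, 17.5, 17.2, 20.3 and 15.3 with sh#2. All 5 sh#1 tumors and 4 of 5 sh#2 tumors were above the highest shCtrl tumor, and all 10 were above the shCtrl mean. The counts behind these values were small, between 8 and 35 per tumor. The log2 fold change was 1.04 (SE 0.262) for sh#1, or 0.77 without sh#1 tumor 2, and 0.61 (SE 0.277) for sh#2. The difference between the hairpins was 0.43 (SE 0.253, 95% interval -0.06 to 0.93, q = 0.589). The shCtrl levels of culture and tumors come from separately prepared and normalized tables and are not compared here.

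F2R, the thrombin receptor, separated the hairpins in culture. It had 35, 19 and 32 counts in shCtrl, 11, 6 and 9 with sh#1, and 18, 21 and 21 with sh#2. All sh#1 libraries were below all others. On the normalized scale the sh#2 libraries (8.40 to 10.2 CPM) lay within the shCtrl range (7.79 to 13.8 CPM). F2R fell by 1.70 on the log2 scale with sh#1 (SE 0.32, q = 4.49e-05), had a change of -0.24 with sh#2 (SE 0.273, q = 0.518), and was lower with sh#1 than with sh#2 by a log2 value of -1.46 (SE 0.34, q = 0.000812). With both hairpins as 1 group the change was -0.83 (SE 0.366, q = 0.129), and as the mean of both hairpins in the fit of 3 groups it was -0.97 (q = 0.00172).

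In tumors F2R had 16.1, 18.4, 9.12, 20.5 and 4.60 CPM in shCtrl, 11.1, 27.1, 27.6, 17.4 and 20.2 with sh#1, and 22.8, 18.8, 21.1, 27.8 and 19.1 with sh#2. Of the 10 knockdown tumors 9 were above the shCtrl mean and 5 above every shCtrl tumor. The log2 fold change of CDH11 KD was 0.60 (SE 0.24, q = 0.287), which did not pass the test, and the hairpins lay close together (0.58 and 0.61). F2RL2, the remaining receptor, had at most 1 count in any cultured library and at most 1 in any tumor.

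**Figure D1:**
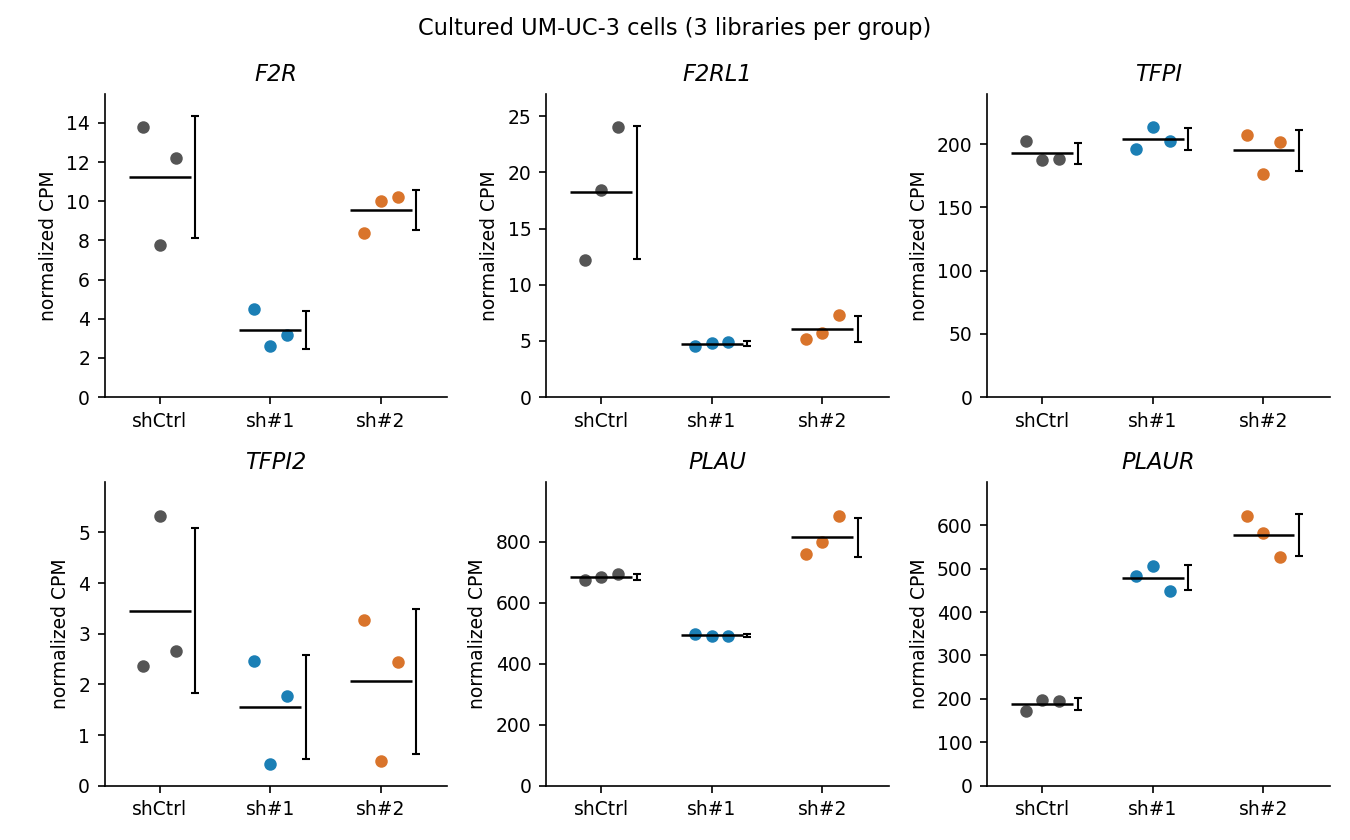
Normalized CPM (vertical axes, from 0) of 6 members in cultured cells, 1 point per library, 3 per group; horizontal lines are means and bars beside them the SD. F2RL1, chosen for it, is lower with both hairpins, and PLAUR is higher with both. F2R is lower with sh#1, and PLAU is lower with sh#1 and higher with the other hairpin. In each of these comparisons the libraries do not overlap with shCtrl. This separation was not set against the share of all genes that separate in the same way. TFPI2 rests on 1 to 13 counts per library.

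Tissue factor itself was close to the detection limit in culture. F3 (chr1:94529173-94541759, minus strand), the cell-surface starter of clotting, had 2, 2 and 6 counts in shCtrl, 6, 3 and 3 with sh#1, and 3, 5 and 3 with sh#2. These ranges overlap and a difference was not detectable at this depth. TFPI (chr2:187464230-187565760, minus strand), its main inhibitor, had 458 to 514 counts in shCtrl, 479 to 576 with sh#1 and 370 to 444 with sh#2. Its mean was 193 ± 8.26 CPM (SD, n = 3) in shCtrl and 199.7 ± 12.6 CPM (n = 6) with CDH11 KD, with overlapping ranges and a log2 fold change of 0.05 (SE 0.0851, 95% interval -0.12 to 0.22, q = 0.719). TFPI2 (chr7:93885396-93890753, minus strand), a matrix-bound inhibitor of plasmin and other serine proteases, had 6, 13 and 7 counts in shCtrl, 6, 1 and 5 with sh#1, and 7, 1 and 5 with sh#2.

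In tumors F3 remained low and uneven. It had 2, 0, 7, 7 and 1 counts in shCtrl, 5, 5, 10, 6 and 11 with sh#1, and 2, 17, 19, 3 and 7 with sh#2, or a range of 0 to 7.98 CPM, 5.65 to 13.9 CPM and 2.84 to 22.8 CPM. The groups overlapped and F3 did not reach the minimum count for the test. When genes with low counts were kept, its log2 fold change was 1.52 for CDH11 KD (SE 0.393, q = 0.0214), 1.70 for sh#2 (q = 0.0135) and 1.31 for sh#1 (q = 0.24). TFPI, with 212 to 596 counts per tumor, lay between 405 and 636 CPM in shCtrl and between 465 and 648 CPM with CDH11 KD, with a log2 fold change of 0.14 (SE 0.104, q = 0.605). The number of F3 reads per TFPI read was small in both systems, 0.0068 ± 0.00464 in shCtrl culture and 0.00694 ± 0.00663 in shCtrl tumors, against 0.0172 ± 0.00532 in sh#1 tumors and 0.0232 ± 0.0187 in sh#2 tumors.

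TFPI2 was spread widely among tumors. It had 22, 2, 25, 9 and 1 counts in shCtrl, 5, 87, 16, 12 and 17 with sh#1, and 10, 11, 8, 56 and 4 with sh#2. A single tumor of each hairpin stood above all others, sh#1 tumor 2 at 98.3 CPM and sh#2 tumor 4 at 59.8 CPM, and the remaining knockdown tumors lay inside the shCtrl range of 1.53 to 28.5 CPM. The log2 fold change of CDH11 KD was 1.18 (SE 0.763, q = 0.567). Without sh#1 tumor 2 the sh#1 value went from 1.45 to 0.35, and without sh#2 tumor 4 the sh#2 value went from 0.86 to -0.15.

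**Figure D2:**
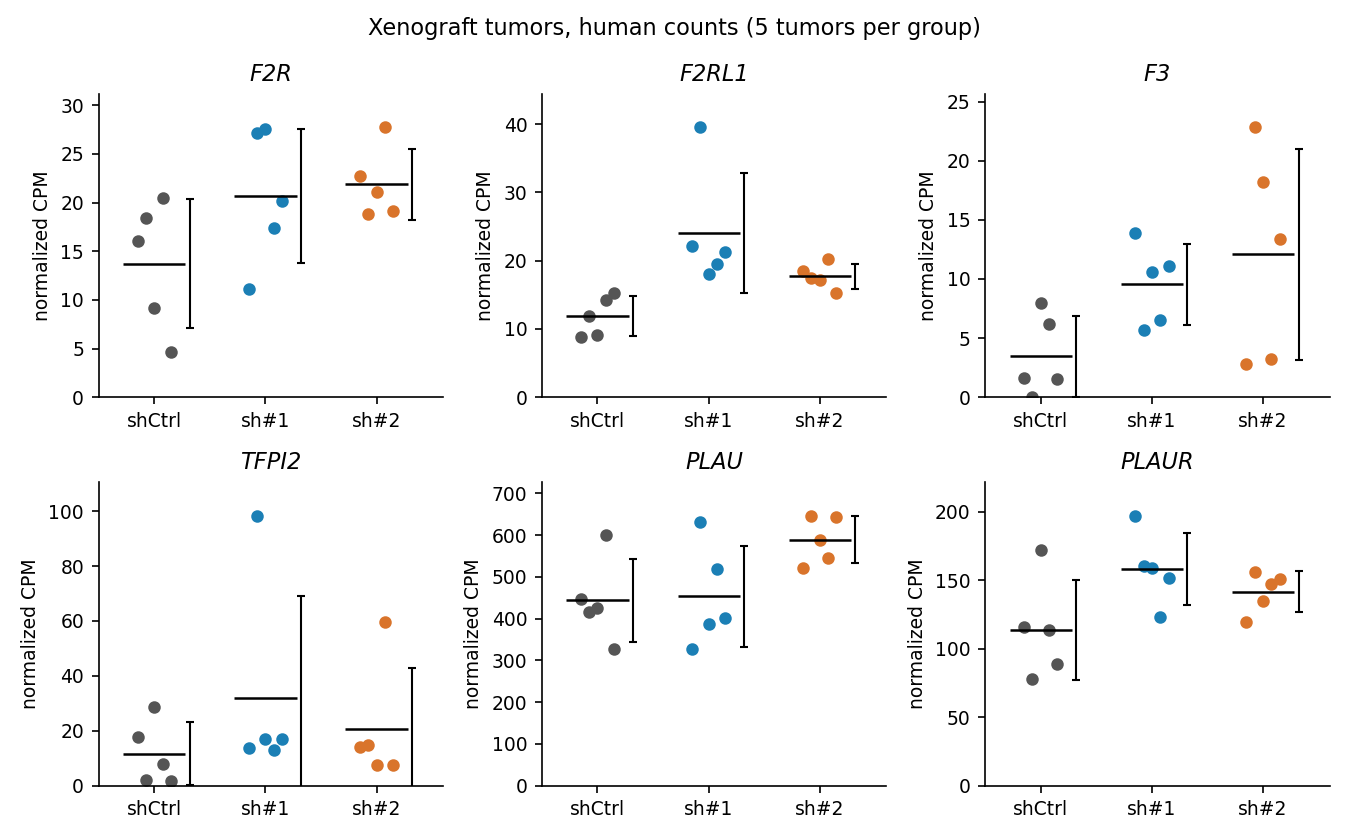
Normalized CPM of human reads (vertical axes, from 0) of 6 members in xenograft tumors, 1 point per tumor, 5 per group; horizontal lines are means and bars the SD, which are cut off at 0. For F2RL1 9 of the 10 knockdown tumors lie above all shCtrl tumors, and TFPI2 has 1 high tumor with each hairpin.

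The urokinase receptor was higher with both hairpins in culture. PLAUR (chr19:43646095-43670547, minus strand), which anchors urokinase at the cell surface, had 437, 483 and 511 counts in shCtrl, 1176, 1164 and 1275 with sh#1, and 1333, 1219 and 1080 with sh#2. All 6 knockdown libraries were above all 3 controls. Its mean was 188 ± 14.2 CPM in shCtrl and 528 ± 64.2 CPM with CDH11 KD, so that PLAUR rose by a log2 value of 1.49 (SE 0.11, q = 4.75e-08). It rose with sh#1 (1.35, q = 1.08e-22) and with sh#2 (1.62, q = 1.13e-26), and was lower with sh#1 than with sh#2 (-0.27, SE 0.0656, q = 0.00135).

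PLAU (chr10:73909177-73917496, plus strand), the urokinase gene, moved in opposite directions with the hairpins in culture. It had 1709, 1666 and 1818 counts in shCtrl, 1212, 1126 and 1393 with sh#1, and 1629, 1674 and 1817 with sh#2, and the normalized means were 683 ± 10.1, 492 ± 4.01 and 815 ± 63.7 CPM. No group overlapped another on the normalized scale. PLAU fell by 0.47 on the log2 scale with sh#1 (SE 0.0607, q = 1.42e-08) and rose by 0.25 with sh#2 (SE 0.0597, q = 0.000485), a difference of -0.73 (SE 0.0608, q = 2.3e-14). With both hairpins as 1 group the value was -0.06 (SE 0.209, q = 0.866), and 3 knockdown libraries lay above and 3 below every control. PLAT (chr8:42174718-42207709, minus strand), the tissue activator, had 4, 6 and 2 counts in shCtrl, 0, 1 and 2 with sh#1, and 3, 2 and 4 with sh#2, too few for a test.

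Dividing the normalized level by the length of the canonical transcript gives a scale on which genes can be set side by side, if reads were spread over whole transcripts, which the sources used here do not state. On that scale shCtrl culture had 292 CPM per kb for PLAU, 138 for PLAUR, 49.96 for TFPI, 6.37 for F2RL1 and 3.02 for F2R, and 1.57 or less for TFPI2, F3, PLAT and F2RL2. With sh#1 PLAUR, at 350.2 CPM per kb, was above PLAU at 210.2, and with sh#2 PLAUR was at 422 and PLAU at 348.

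The change in both genes was also seen as a ratio of reads within a library, which does not depend on library size. PLAUR reads per PLAU read were 0.276 ± 0.0178 in shCtrl culture, 0.973 ± 0.0594 with sh#1 and 0.714 ± 0.113 with sh#2, a ratio that was chosen after its genes' values were seen. The ratio did not overlap between shCtrl and either hairpin in culture. In tumors PLAUR reads per PLAU read were 0.262 ± 0.0881 in shCtrl, 0.376 ± 0.147 with sh#1 and 0.241 ± 0.0171 with sh#2. The tumor ranges overlapped for every group.

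**Figure D3:**
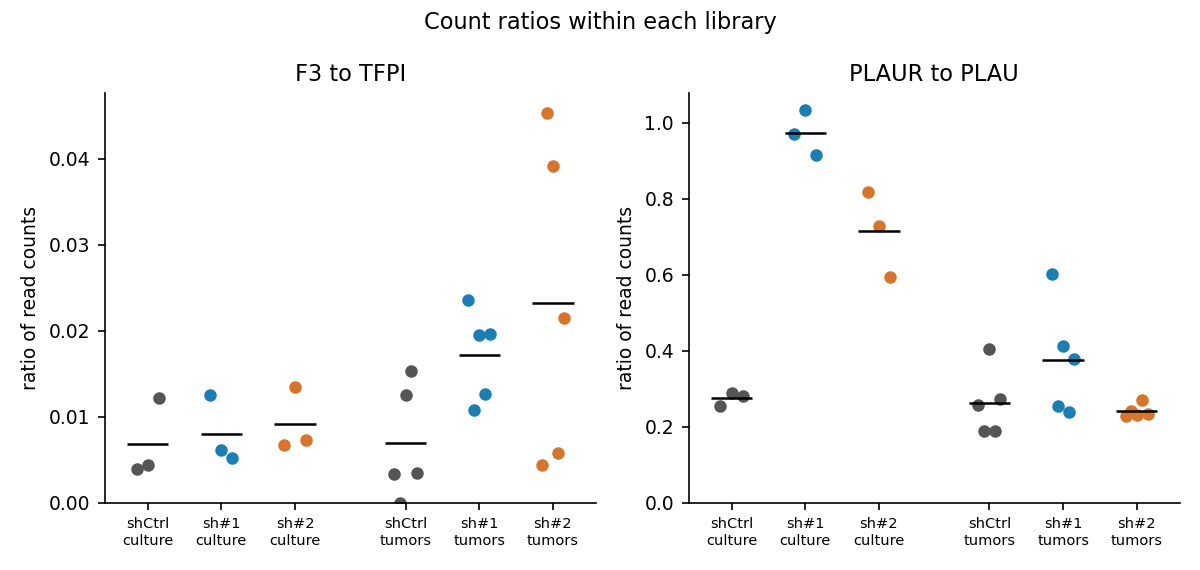
Read-count ratios within each library (vertical axes, from 0) in culture (3 libraries per group) and in tumors (5 per group); points are libraries and lines means. The PLAUR to PLAU ratio in culture is 0.29 or less in shCtrl and 0.594 or more with both hairpins, while its tumor groups overlap, and the F3 to TFPI ratio is below 0.05 in every library.

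In tumors PLAUR had 116, 77.9, 172, 114 and 88.9 CPM in shCtrl, 197, 160.5, 159, 123 and 152 with sh#1, and 119, 156, 135, 147 and 151 with sh#2. All 10 knockdown tumors were above the shCtrl mean, but shCtrl tumor 3 was above 9 of them. The log2 fold change was 0.38 (SE 0.138, q = 0.22) for CDH11 KD, 0.45 (q = 0.207) for sh#1 and 0.31 (q = 0.386) for sh#2, none past the test. Without shCtrl tumor 3, the highest of its group, these became 0.57 (q = 0.0288), 0.64 (q = 0.014) and 0.50 (q = 0.0857), all past it. Over all 15 fits with 1 tumor left out, the CDH11 KD value ranged from 0.27 to 0.57 (q = 0.0288 to 0.483). In 14 of them it did not pass. PLAU had 448, 415, 426, 601 and 326 CPM in shCtrl, 327, 631, 387, 518 and 402 with sh#1, and 522, 646, 588, 545 and 644 with sh#2. Its log2 fold change was 0.04 (q = 0.961) for sh#1 and 0.40 (SE 0.154, q = 0.216) for sh#2, and the difference of the hairpins -0.37 (SE 0.154, q = 0.403). Without shCtrl tumor 4, the highest of its group, the sh#2 value was 0.53 (q = 0.0775). Over all 15 such fits it ranged from 0.30 to 0.53 (q = 0.0775 to 0.39), and in 14 it did not pass. PLAT had 1 to 10 counts per tumor in shCtrl, 0 to 6 with sh#1 and 0 to 4 with sh#2.

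**Figure D4:**
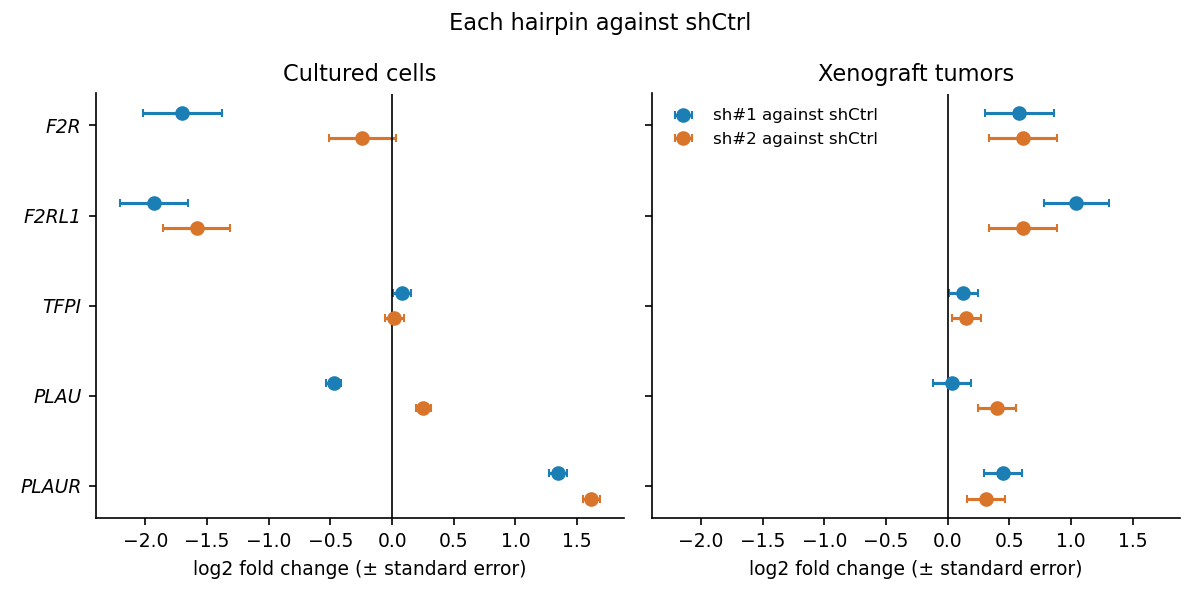
Log2 fold change of each hairpin against shCtrl (horizontal axis; bars are standard errors of the edgeR fit) for 5 members, in culture (left) and in tumors (right). F2RL1, chosen for it, lies left of 0 in culture and right of 0 in tumors, and PLAUR lies right of 0 in all 4 comparisons but nearer to 0 in tumors.

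Counted over the members other than F2RL1, 1 of the 4 tested passed in culture for CDH11 KD (PLAUR, higher), where 17.4% of all 9859 genes tested passed. For sh#1 3 of 4 passed (PLAUR higher, PLAU and F2R lower), against 22.4% of all genes, and for sh#2 2 of 4 (PLAUR and PLAU higher), against 38.3%. Between sh#1 and sh#2 3 of the 5 tested members passed (F2R, PLAU and PLAUR, each lower with sh#1), against 24.7% of all genes, while F2RL1 and TFPI (0.06, SE 0.0756, q = 0.586) did not. With 4 or 5 members tested, these shares describe the members and were not set against chance.

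In tumors 0 of the 5 tested members other than F2RL1 passed edgeR's test for CDH11 KD, where 1.51% of 9184 genes did, 0 of 5 for sh#1 (1.48% of all genes) and 0 of 5 for sh#2 (2.68%), and 0 of 6 passed between sh#1 and sh#2 (1.19%). At an unadjusted p under 0.05 the counts were 2, 2, 2 and 1. These were not set against the share of all genes at that cutoff. DESeq2 likewise gave 0 past the threshold in each of the 4 comparisons. The median log2 fold change of CDH11 KD over these 5 members was 0.38, against 0.01 over all genes tested. In culture the median over the 4 tested members other than F2RL1 was -0.0067, against 0.00017 over all genes.

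The effect of CDH11 KD was compared between tumors and culture by an exact two-sided permutation test over all 252252 relabelings of libraries within each system, for the 8307 genes tested in both. F2R had a log2 difference of -0.84 in culture and 0.65 in tumors, so that tumors minus culture was 1.49 (unadjusted p = 0.0103, q = 0.148). PLAUR had 1.48 in culture and 0.43 in tumors, a difference of -1.05 (unadjusted p = 0.0484, q = 0.272). PLAU (0.33, q = 0.566) and TFPI (0.10, q = 0.681) differed less. None of the 4 passed after adjustment, where 0.494% of all genes did, and 2 had an unadjusted p under 0.05. Those 2 were not set against the share of all genes at that cutoff. Relabeling within each system takes no CDH11 KD effect in either system as the null, and a gene's own effect widens the relabeled values. A q above the threshold therefore does not show equal effects in the 2 systems. For PLAUR the edgeR values were 1.49 (SE 0.11) in culture and 0.38 (SE 0.138) in tumors. For F2RL1 the same difference was 2.27, from -1.58 in culture and 0.69 in tumors, given as a description because it chose the gene.

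The mouse host carries the same system, and reads of both species were counted in each tumor. Of the 9 mouse orthologs only Plau had enough counts for a test, with 9 to 19 counts per tumor in shCtrl, 3 to 15 with sh#1 and 4 to 35 with sh#2, and its log2 fold change was -0.28 (SE 0.309, q = 0.954). It did not pass, and of 1669 mouse genes tested 0% passed edgeR's test for CDH11 KD, with DESeq2 calling 1 gene, which was not an ortholog of a member, and 0 orthologs at an unadjusted p under 0.05. Mouse F2rl1 had 3 counts in all 15 tumors together, against 8 to 35 human F2RL1 counts in each tumor. Human PLAUR counts (58 to 151 per tumor) and TFPI counts (212 to 596) were likewise far above their mouse orthologs (0 to 6 and 1 to 7). For PLAT the order was the other way, with 1 to 17 mouse Plat counts and 0 to 10 human ones. Mouse F3 had 1, 0, 1, 1 and 0 counts in shCtrl, 6, 0, 2, 3 and 3 with sh#1, and 0, 3, 4, 0 and 0 with sh#2, so the sh#2 tumors with 17 and 19 human F3 counts were the ones with mouse F3 counts. The part of mouse reads in the low human F3 counts was not tested. In the tumors with the highest human TFPI2, mouse Tfpi2 had 1 count each. The 5 mouse fibroblast markers summed to 6967 to 18070 CPM of the mouse counts in shCtrl, 1686 to 12560 with sh#1 and 5351 to 20210 with sh#2. When each tumor's mouse-to-human read ratio was added to the fit, the CDH11 KD log2 fold change of F2RL1 in tumors was 0.75, against 0.84 without it, and 0 of the 5 other members tested passed.

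**Figure D5:**
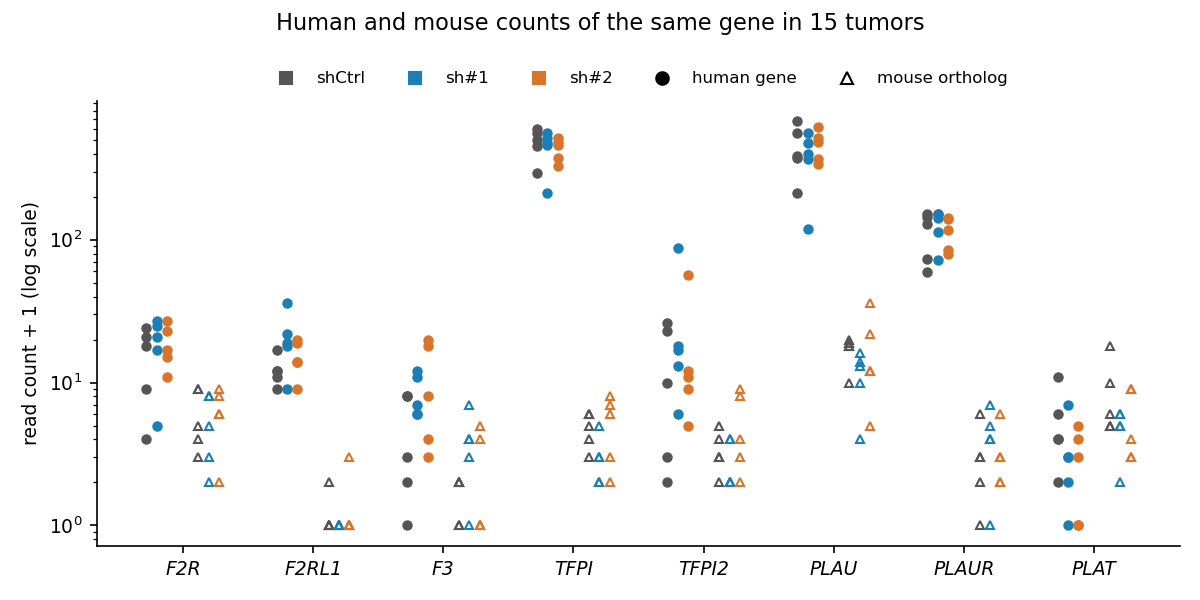
Read count plus 1 (vertical log axis) of 8 human members (filled circles) and their mouse orthologs (open triangles) in each of 15 tumors, colored by group. Human TFPI, PLAU, PLAUR and F2RL1 lie above their orthologs, while the ranges of F2R, F3, TFPI2 and PLAT overlap those of the mouse genes.

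Around the members, 42 further genes of clotting, fibrinolysis and receptor signalling were followed, of which 13 had enough counts for a test in culture and 13 in tumors. In culture 2 were higher and 1 lower with CDH11 KD, where 17.4% of all genes passed in either direction, with a median log2 fold change of 0.28 against 0.00 over all genes. GNA13, a G protein alpha subunit, rose by 0.65 (SE 0.148, q = 0.0059), from 36.6 ± 1.39 to 57.7 ± 10.4 CPM. GNA12, its close relative, fell by 0.64 (SE 0.172, q = 0.0161), from 37.1 ± 9.51 to 23.8 ± 3.75 CPM, and did not pass without shCtrl replicate 3 (-0.41, q = 0.178). Of the 9 clotting factors listed, F3 included, and the 8 surface proteases and their inhibitors, 0 had enough counts for a test in either system.

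In culture the genes of plasminogen activators and receptors differed between the hairpins, though not all in the same direction. Of the 7 tested genes among plasminogen activators and receptors, PLAU and PLAUR included, 6 rose with sh#2 and 0 fell, where 38.3% of all genes passed, while 1 rose and 2 fell with sh#1, where 22.4% did. Between sh#1 and sh#2 all 7 passed, 6 lower and 1 higher with sh#1, where 24.7% of all genes did. The 1 that was higher with sh#1 was PLGRKT, a plasminogen receptor (0.45, q = 0.042), with 0.13 (q = 0.606) for sh#1 and -0.32 (q = 0.137) for sh#2 against shCtrl. ANXA2 and S100A10, which form a surface complex that binds plasminogen, had log2 fold changes of 0.65 (q = 3.58e-15) and 0.70 (q = 2.81e-13) with sh#2, against -0.12 (q = 0.109) and -0.02 (q = 0.878) with sh#1. ENO1, a glycolytic enzyme that also binds plasminogen at the surface, had 0.74 (q = 7.82e-08) with sh#2 and -0.02 (q = 0.89) with sh#1. LRP1, which clears urokinase and inhibitor complexes, fell with sh#1 (-0.68, q = 0.0477) and rose with sh#2 (0.63, q = 0.022). In tumors 0 of the 7 passed between sh#1 and sh#2, where 1.19% of all genes did. The genes of this paragraph were named after their values were seen.

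Among the listed inhibitors of the plasminogen system, SERPINB2 (PAI-2), an inhibitor of urokinase, was seen with sh#1 alone in culture, with 20, 12 and 7 counts against 0 in each of the 3 shCtrl and 3 sh#2 libraries. It was named after its values were seen and had too few counts for the filter. Against a floor of 3 counts over a group, its summed share of reads with sh#1 was at least 12.4-fold higher than in shCtrl and at least 12.3-fold higher than with sh#2. In tumors SERPINB2 had 13 counts over the 5 shCtrl tumors, 12 over the sh#1 tumors and 3 over the sh#2 tumors. In tumors 0 of the 13 further genes passed edgeR's test for CDH11 KD, where 1.51% of all genes did, and DESeq2 gave 0. An unadjusted p under 0.05 was found for 1, which was not set against the share of all genes at that cutoff. Their median log2 fold change was 0.07, against 0.01 over all genes tested.

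The genes most like F2RL1 were sought where the mean count reached 20, by the smallest mean absolute difference from F2RL1 in log2 CPM centred on the shCtrl mean. In culture, over 9 libraries and 8110 genes, these were ZC3HAV1 (a mean difference of 0.186), SETD1B (0.322), TRA2A (0.325), FADD (0.33) and PITX1 (0.34). ZC3HAV1, an antiviral zinc finger protein, had 45.1 CPM in shCtrl, 13.6 with sh#1 and 15.7 with sh#2, and PITX1, a homeobox transcription factor, had 491, 200.3 and 212. In tumors, over 15 tumors and 6445 genes, these were NDUFB7 (0.247), RAP1GDS1 (0.251), GNPTAB (0.252), C18orf25 (0.268) and KIF1B (0.274). NDUFB7, a complex I subunit of mitochondria, had 107 CPM in shCtrl, 162 with sh#1 and 138 with sh#2. The lists of the 2 systems shared no gene. F2RL1 was chosen for opposite directions in them, so this was nearly fixed in advance and is not a result. F2RL1 itself had a mean of 23.7 counts in culture and 15.1 in tumors, so this likeness carries its counting error.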

How the data were processed

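RNA-seq of cultured cells and xenograft tumors was done with single reads of 75 bases, which were trimmed by the authors (CLC Genomics Workbench for culture, Trim Galore for tumors) and mapped to hg38 (RaNAseq for culture, HISAT2 for tumors). The deposited tables hold raw counts per gene, 1 column per library, for culture, human tumor genes and mouse tumor genes. The counting tool, its use of strand or molecular identifiers, and how reads were split between human and mouse are not given in the sources used here. A deposited list of barcodes gave the mix of each tumor. Of the cultured table, 13 rows with no values were not analysed here.

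From these counts, genes were filtered (filterByExpr), normalized (TMM) and tested with edgeR 4.0.16 (robust quasi-likelihood) under R 4.3.3, CDH11 KD against shCtrl in a fit of 2 groups and single hairpins in a fit of 3. The 5 tumors of a group share 1 sample record and are told apart by column name. CPM on the log2 scale used a prior count of 2. Scripts were tested on simulated data. DESeq2 1.42.0, upper quartile normalization, other filters, a replicate block and leaving out each library were the alternatives. Replicate pairs differed by more than counting noise (chi-square per degree of freedom 1.30 to 2.23 in culture and 1.79 to 6.04 in tumors). Members and lists were chosen with earlier results of these data known. Named were all members, the list genes past the threshold for CDH11 KD in either system (at most 12 per system), the 5 genes most like F2RL1 in each system, and CDH11. ANXA2, S100A10, ENO1, LRP1, PLGRKT and SERPINB2 fall outside this rule and were named after their values were seen. One gene of the lists is counted with them but not reported here. Gene positions are from GENCODE on hg38, and sequences from RefSeq.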

Additional observations from a re-analysis of the deposited data

Results flagged for a closer look

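In 4 of 27 sets of 5 tumors, 1 tumor lay far outside the spread of its group, with a gap above 0.71 of the range. That limit marks about 1 in 20 sets by chance if values are normally distributed. Low counts need not be, and the sets reuse the same tumors, so the number was not set against chance. F2RL1 was at 39.6 CPM in sh#1 tumor 2, with the other sh#1 tumors between 18.0 and 22.2. TFPI2 was at 98.3 CPM in the same tumor, with the others between 13.1 and 17.2. TFPI2 was at 59.8 CPM in sh#2 tumor 4, with the other sh#2 tumors between 7.64 and 14.8. Human counts totalled 414849 in sh#1 tumor 1, with the other sh#1 tumors between 895180 and 1011977. The CDH11 KD effect on F2RL1 differed between tumors and culture by 2.27 on the log2 scale, all 6 knockdown libraries being below the shCtrl mean in culture and all 10 tumors above it. It is given without a p, because the gene was chosen for it. Without sh#1 tumor 1 the log2 fold change of F2RL1 with sh#1 in tumors was 1.06.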

How the results depend on the processing

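Members are counted here without F2RL1. In culture, averaging the hairpins in the 3-group fit raised the members past the threshold for CDH11 KD from 1 to 2 (F2R, -0.97, q = 0.00172), the genes of all lists from 4 to 11, and all genes from 1719 to 3291. In tumors, keeping low counts raised members from 0 to 1 for CDH11 KD, the lists from 0 to 1 and sh#2 members from 0 to 1, each time F3, and all genes for CDH11 KD from 139 to 276. Leaving out 1 tumor at a time gave 0 to 1 members for CDH11 KD, 0 to 1 genes of the lists, 0 to 1 members for sh#1 and 0 to 2 for sh#2. These were PLAUR without shCtrl tumor 3, PLAU without shCtrl tumor 4, and F3 with sh#2 without shCtrl tumor 3 (2.20, q = 0.0861), sh#2 tumor 1 (1.97, q = 0.0895) or sh#2 tumor 4 (2.01, q = 0.0571), when it passed the filter. The cause was not tested. DESeq2 called 1346 genes for sh#1 in culture, against 2209 by edgeR, and 1543 against 2431 between the hairpins.

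Signs changed for values that had not passed the test. TFPI with sh#2 in culture was -0.022 with upper quartile normalization and -0.00395 with at least 10 counts in every library. With 1 library left out the log2 values ranged from -0.025 to 0.088 for TFPI with sh#2, -0.17 to 0.015 for PLAU with CDH11 KD and -0.0022 to 0.11 for TFPI between hairpins in culture, and in tumors from -0.12 to 0.17 for PLAU with sh#1, -0.14 to 0.089 for F2R, -0.50 to 1.59 for TFPI2 and -0.083 to 0.034 for TFPI between hairpins, and -0.15 to 1.38 for TFPI2 with sh#2.

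Pairing of the samples by replicate number was not established. Libraries of the same number correlated at -0.03 to 0.09 (median 0.02) in culture and -0.14 to 0.17 (median -0.02) in tumors. Those of different number correlated at -0.08 to 0.05 (median -0.01) in culture and -0.27 to 0.25 (median 0.0048) in tumors. Values this small do not exclude pairing. With a replicate block the members past the threshold stayed at 1, 3, 2 and 3 in the culture comparisons and 0 in tumors. Of the other comparisons of a count with its alternative, 214 kept the count within 1.5 times, which includes counts that stayed at 0. It also includes culture members for sh#1 and between the hairpins, which went from 3 to 2. With at least 10 counts required in every library, F2R, with 6 to 11 counts with sh#1, was not tested. Depth limits the tumor results: F2R, F2RL1, F3 and PLAT had 0 to 35 counts per tumor.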
